A study of Mus musculus with 18 samples.

Results

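GL261 glioma cells recovered from tumours of Pfp/Rag2-/- mice were set against the same cells in culture. The comparison takes 6 of the 18 libraries, 3 of each group. A gene was kept where 3 or more of these 6 libraries reached a normalized count of 10, which held for 14487 of the 48795 genes in the table. The first group held GFP+ cells sorted from tumours of symptomatic Pfp/Rag2-/- mice, whose strain is given as C57BL/6. These hosts lack perforin (Pfp) and Rag2, and had been injected with GL261 cells that carry green fluorescent protein. The second group held the cultured GL261 GFP cells that served for the injections, which were grown in DMEM with 10% fetal bovine serum and were also labelled as sorted for GFP. Both groups share the line and its GFP. Other libraries are used below only as points of comparison, namely GFP+ cells and GFP- cells sorted from tumours of C57BL/6 WT mice, and unsorted cells from tumours of Pfp/Rag2-/- mice. Per the labels' protocols, 6 mice of each genotype gave tumours, which were brought into suspension with collagenase at 1.5 mg/mL. The labels give neither the site of injection nor the age of the mice, and do not say whether a library was made from 1 mouse or from a pool. The p-values therefore measure the spread between these libraries. Excision, digestion and host RNA go with the tumour libraries, so their part in a difference cannot be told apart from that of growth in the mouse.

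GL261 is a chemically induced mouse glioma line that forms tumours in C57BL/6 mice and, in dishes with serum, grows as an adherent culture. Rag2 is needed to rearrange antigen receptor genes, so mice without it have no mature T or B cells, and perforin forms the pores through which killer cells deliver granzymes. Such hosts keep natural killer (NK) cells that lack perforin, and they keep macrophages, microglia and other myeloid cells. A tumour cell in tissue meets matrix, vessels, glia and host cytokines, while a cell on plastic meets serum lipids, growth factors and a stiff surface.

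The 6 libraries held 19172814 to 21141662 reads counted to genes. A read was present for 22601 to 23217 genes in the Pfp/Rag2-/- GFP+ libraries and for 20463 to 20535 genes in culture. Prf1, the perforin gene (chr10:61297833-61304680, GRCm38), had 128, 6 and 1 reads in the Pfp/Rag2-/- GFP+ libraries and 0, 1 and 0 in culture, and Rag2 (chr2:101624718-101632529) had 5, 0 and 0 reads against 0, 1 and 0. Reads on a gene do not show whether the part deleted in the mouse was present, so these values check no label. Markers of host cells were present in the tumour libraries, most of all in library 1. All 18 macrophage and microglia markers were called higher than in culture, and their summed normalized count was 19533, 7973 and 8089 in Pfp/Rag2-/- GFP+ libraries 1, 2 and 3, against 222 to 241 in culture, where 7 of the 18 were at 0 in each library. The 7 NK markers summed to 2043, 47.8 and 26.7, against 2.83 to 7.54 in culture, where 5 or 6 of the 7 were at 0. Of 12 endothelial markers 10 were called higher, among them Cldn5, Cdh5 and Kdr at 0 reads in all cultured libraries, and 2 lower, and of 10 pericyte and fibroblast markers tested 7 were higher and 1 lower. The 5 red blood cell genes, whose copies share reads, summed to 149 to 236.5 in the tumour libraries and 8.48 to 11.45 in culture. T cell markers summed to 565, 206 and 241, against 185 to 212, B cell markers to 290 to 322 against 263 to 296, and neutrophil markers to 46.6, 7.35 and 9.21 against 0.943 to 3.78. Library 1 was at least 2 times both other tumour libraries for 547 of the 14487 genes, against 22 such genes for library 2 and 32 for library 3. The 3 tumour libraries are given in that order throughout, and the level in GFP- cells stands beside many of the genes below. Those GFP- cells came from WT hosts, not from Pfp/Rag2-/- hosts. By the deposited size factors 1 read is worth 1.315 to 1.541 in GFP- libraries and 0.9132 to 0.921 in Pfp/Rag2-/- GFP+ libraries. Levels set side by side depend on this scaling. In GFP- cells the median neuron, astrocyte and oligodendrocyte lineage marker was at 1.22% to 6.85%, 4.21% to 21.1% and 9.33% to 33.9% of unsorted Pfp/Rag2-/- tumours. A low GFP- mean therefore cannot show whether a neural or glial transcript came from host cells.

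**Figure D1:**
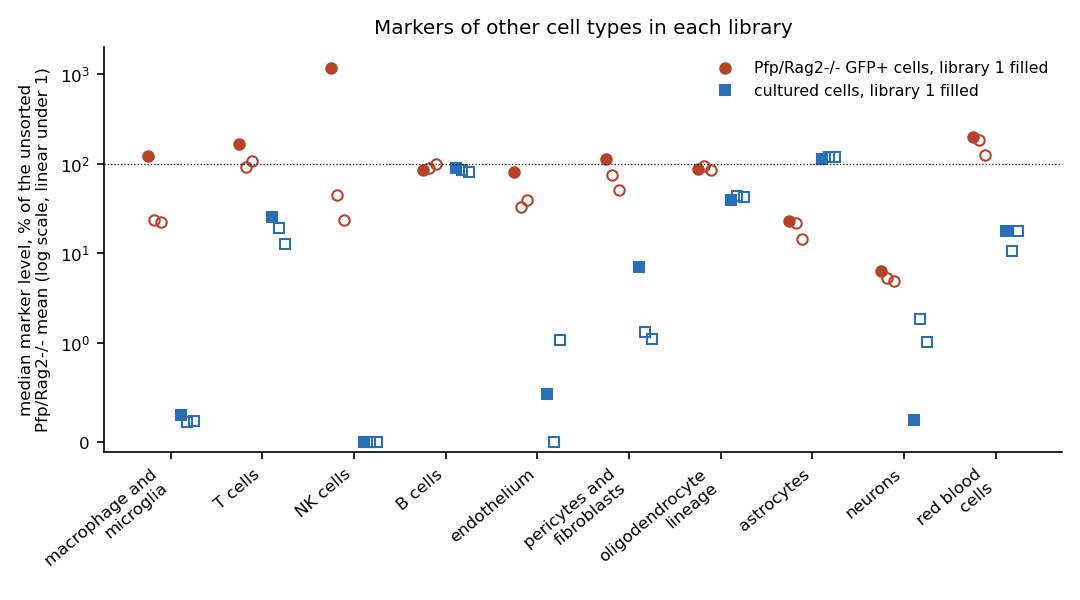
Each point is 1 library. The vertical axis gives the median level of the markers of a cell type as a percentage of their mean in unsorted Pfp/Rag2-/- tumours, on a log scale that is linear under 1; circles are Pfp/Rag2-/- GFP+ cells, squares cultured cells, and library 1 of each is filled. The macrophage median was 121%, 23.2% and 22.1% in the tumour libraries against 0.201% to 0.278% in culture, and the astrocyte median was 14.3% to 23.1% in the tumour libraries against 112% to 120% in culture, although 3 of the 7 astrocyte markers were higher and 4 lower.

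Of the 14487 genes, 5089 (35.1%) were higher and 5377 (37.1%) lower in Pfp/Rag2-/- GFP+ cells than in culture when tested with limma (adjusted p under 0.05, Benjamini-Hochberg method). The difference was at least 2-fold for 2228 genes that were higher (15.4%) and 1230 that were lower (8.49%). Log2 differences here and below are Pfp/Rag2-/- GFP+ minus culture on log2 of the normalized count plus 1, with their standard error (SE), and understate the change of genes with few reads. The 3 tumour libraries lay above all 3 cultured ones for 37.6% of the genes and below them for 39.2%. The median over all genes tested was -0.01. So many genes were called that a list with about 1 in 3 members called in each direction is like the background, and each list below is to be read against those shares. The genes left out were 20738 with no read in the 6 libraries and 13570 with a read that did not pass. Among those that passed, 899 did so through the tumour libraries alone, of which 879 were called higher, and 124 through culture alone, of which 116 were called lower. Both counts follow from the way the filter works. At the edge of the filter the third highest of 6 values was 10.05 for Dhrs9, Lypd3 and Pantr2, which passed, and 9.54 for M1ap, Zkscan16 and Rbx1-ps, which did not.

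Of the 2228 genes higher by at least 2-fold, 1148 (51.5%) had a lower mean in GFP- cells of WT tumours than in the Pfp/Rag2-/- GFP+ cells, against 52.9% of all genes tested. A GFP- mean at least 10 times the Pfp/Rag2-/- GFP+ mean was found for 414 of them (18.6%), against 5.53% of all genes tested. Of the 2228, 370 were at least 2 times higher in library 1 than in both other tumour libraries, and 306 of those 370 had such a GFP- mean. Without library 1, 2109 of the 2228 remained called at 2-fold or more.

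**Figure D2:**
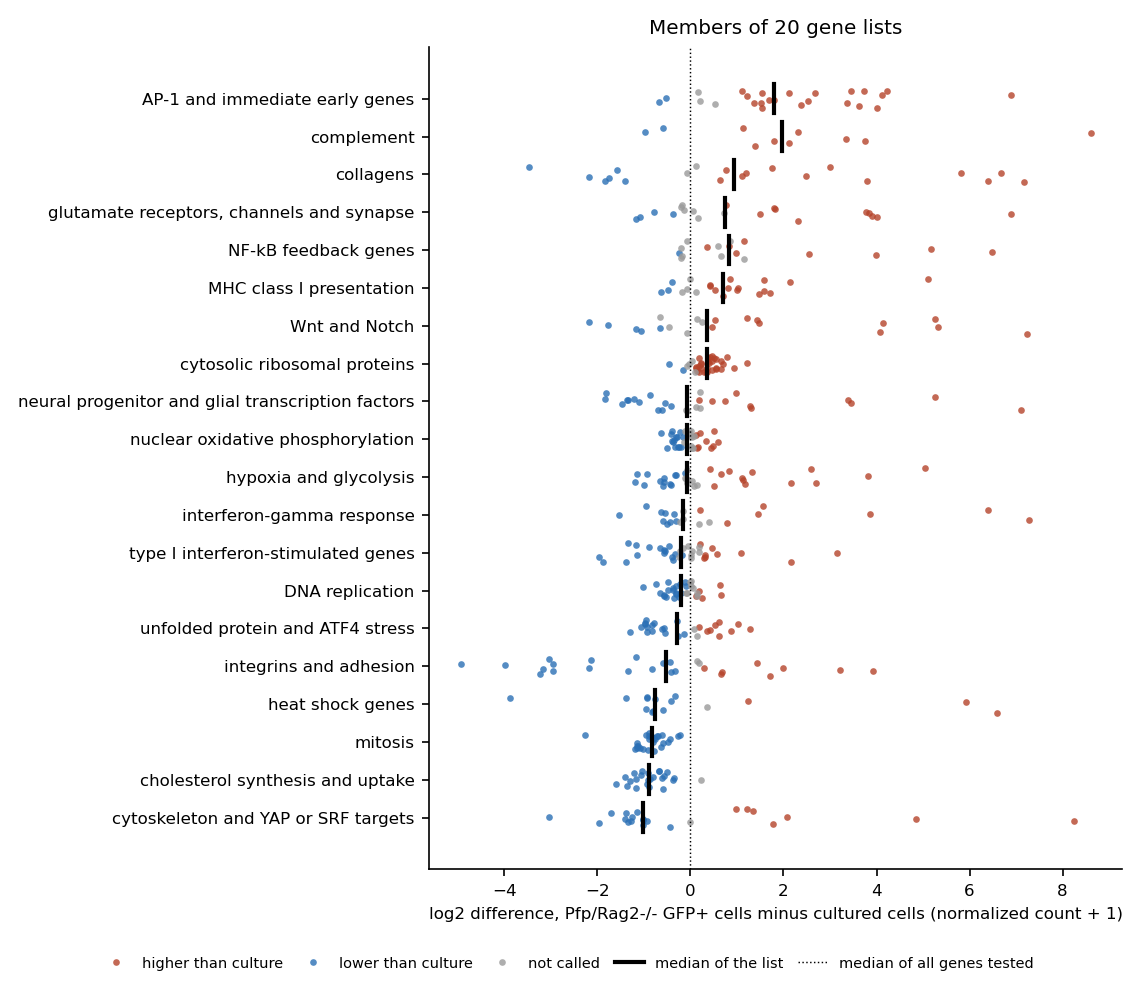
Each dot is a gene, placed on the horizontal axis by its log2 difference, Pfp/Rag2-/- GFP+ cells minus culture; red dots were called higher, blue dots lower and grey dots not called, the bar is the median of the list, and the dotted line is the median of all genes tested, -0.01. Medians were highest for complement, 1.96, and immediate early genes, 1.79. They were lowest for cholesterol synthesis and uptake, -0.90, and for cytoskeletal genes with targets of YAP or serum response factor, -1.03.

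The largest differences included a set of neural and epithelial genes at similar levels in the 3 tumour libraries. Brinp3 (ENSMUSG00000035131, GRCm38 chr1:146494760-146902472), of a family of neural proteins induced by BMP and retinoic acid, had 1197, 1347 and 1273 normalized counts in the tumour libraries and no read in culture, at least 448-fold higher against a floor of 3 reads per library. Omg, the oligodendrocyte myelin glycoprotein (ENSMUSG00000049612, GRCm38 chr11:79500982-79504084), had 1009, 1021 and 959.7 against 1.89, 0.943 and 0.954. Ppfia2, a liprin of presynaptic scaffolds (ENSMUSG00000053825, GRCm38 chr10:106470339-106935952), had 779.9, 727 and 975 against 0.945, 0.943 and 1.91. The groups were far apart for each of these genes, and the GFP- cells of WT tumours had means of 44.2 ± 51.7, 38.7 ± 23.1 and 6.06 ± 3.07 (SD, n = 3). Unsorted tumours of the same Pfp/Rag2-/- hosts held 1023 ± 111, 1492 ± 152 and 536 ± 65.7. The part of host neurons and glia was not tested. The log2 difference between sorted and unsorted was -0.58 ± 0.08 for Omg (adjusted p = 0.00312), so Omg was lower in the sorted cells.

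H19, a long noncoding RNA of an imprinted locus (ENSMUSG00000000031, GRCm38 chr7:142575529-142578143), reached 38022, 47864 and 31163 in Pfp/Rag2-/- GFP+ cells against 71.8, 85.8 and 129 in culture, a log2 difference of 8.68 ± 0.21 (adjusted p = 4.43e-09). Its GFP- mean was 1479 ± 2094, under every tumour library. Unsorted Pfp/Rag2-/- tumours held 72758 ± 5599, and H19 was lower in the sorted cells (log2 difference -0.92 ± 0.16, adjusted p = 0.00674). Krt8 (ENSMUSG00000049382, GRCm38 chr15:101996698-102004482) had 5780, 5010 and 5840 against 16.1, 17.9 and 18.1, and its usual partner keratin Krt18 had 52.97, 56.95 and 55.3 against 0.945, 0.943 and 0.954. The log2 differences were 8.24 ± 0.09 and 4.85 ± 0.29, and neither gene's groups overlapped. Pstpip2, an adaptor of the actin cytoskeleton, stood at 1392, 1400 and 1384 against 0.945, 0.943 and 3.82, and Pid1, a regulator of insulin signalling, at 766, 679.7 and 713 with no read in culture. Unlike H19 and Krt8, Pstpip2 and Pid1 had GFP- means of the same order, at 1009 ± 445 and 1271 ± 812.

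Levels of Brinp3, Omg, Ppfia2 and Krt8 also differed between hosts. In GFP+ cells of the Pfp/Rag2-/- and WT hosts, Omg averaged 997 ± 32.7 and 162 ± 111 normalized counts, Ppfia2 828 ± 131 and 99.2 ± 7.16, and Krt8 5543 ± 463 and 1292 ± 105 (SD, n = 3 each). The log2 differences between hosts, Pfp/Rag2-/- minus WT, were 2.81 ± 0.40 (adjusted p = 0.00324), 3.04 ± 0.13 (3.57e-05) and 2.10 ± 0.08 (3.57e-05), and for Brinp3 0.74 ± 0.21 (0.0367). All 4 were thus higher in the cells from Pfp/Rag2-/- hosts, in a comparison in which 2228 of 14807 genes (15%) were higher and 2269 (15.3%) lower. Of 10 oligodendrocyte lineage markers 6 were higher than in WT GFP+ cells and none lower, and of 10 pericyte and fibroblast markers 5 and none. The part of those cells in the host differences was not tested.

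Other genes at the top of the ranking were genes of macrophages and other leukocytes. Ctss, the lysosomal protease cathepsin S, had 2617, 553 and 565 in the tumour libraries against 0, 0 and 0.954, and GFP- cells held 149035 ± 24501. C1qa, of the first complement component, had 1175, 299 and 323 against 0.945, 0 and 0, and GFP- cells held 73916 ± 3530. Its partner chains C1qb and C1qc, with no read in culture, were also highest in library 1. Rgs1, a brake on chemokine receptor signalling, had 2233, 274 and 258 with no read in culture, and GFP- cells held 72724 ± 7649. In each case library 1 was several times the other tumour libraries. Il1b, the gene of interleukin 1 beta, had 2866, 129.5 and 118 with no read in culture, and GFP- cells held 80376 ± 15894. The part of host cell RNA in these differences was not tested. Igfbp7, an insulin-like growth factor binding protein made by vessels, had 666, 333 and 272 against 0, 0 and 0.954, and Mobp, a myelin gene, 918, 426 and 785 with no read in culture. Unsorted Pfp/Rag2-/- tumours held 795 ± 286 and 1802 ± 1151.

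Among the 15 genes lowest relative to culture was Ngfr, the p75 neurotrophin receptor (ENSMUSG00000000120, GRCm38 chr11:95568818-95587735), with 279, 303 and 333 in Pfp/Rag2-/- GFP+ cells against 9646, 9926 and 10057 in culture, 32.4-fold lower (log2 difference -5.02 ± 0.06, adjusted p = 2.66e-10). Gfra2, a coreceptor of the GDNF family ligands, had 35.6, 36.7 and 41.5 against 1208, 1235 and 1185. Scara5, a scavenger receptor for ferritin, had 37.4, 46.8 and 46.97 against 1697, 1449 and 1416. None of the 3 genes had groups that overlapped.

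Ly6c1, a surface antigen gene (ENSMUSG00000079018, GRCm38 chr15:75044018-75048830) whose close paralog Ly6c2 could share its reads, had 83.1, 19.3 and 20.3 against 2192, 2131 and 2210. Crabp1, a retinoic acid binding protein, had 17.4, 12.9 and 8.29 against 724, 799 and 817, and Chrdl2, a BMP antagonist, 0, 2.76 and 0.921 against 124, 119 and 119. Itga8, an integrin chain, Lgr6, an R-spondin receptor, and Vgll3, a cofactor of TEAD factors, had log2 differences of -4.94 ± 0.11, -4.79 ± 0.25 and -4.62 ± 0.10. Ntn4, a netrin of basement membranes, and Gprin3, Rasgef1c, Cfap100, Wfdc1 and Hhla1 complete the 15 lowest, with log2 differences between -5.37 and -4.53. GFP- cells held 146 ± 81.99 of Ly6c1 and 34.5 ± 18.1 of Itga8.

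**Figure D3:**
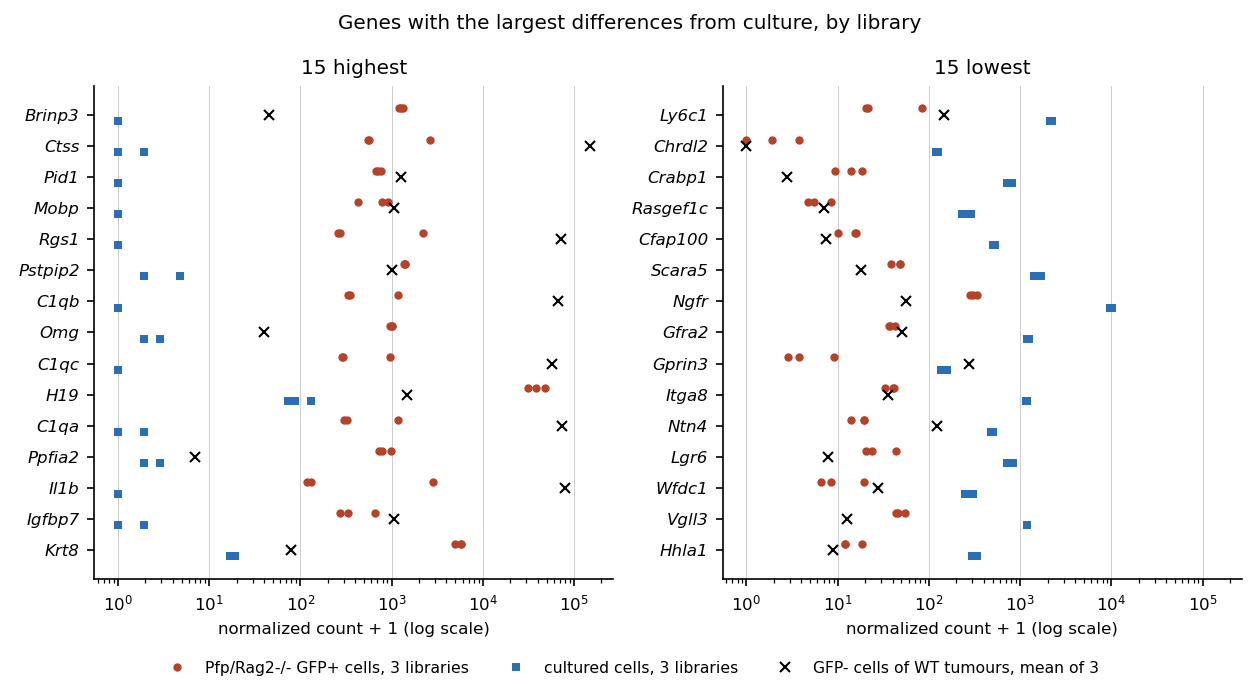
Normalized counts plus 1, on a log scale, of the 15 genes with the highest and the 15 with the lowest log2 difference, taken among called genes with groups that do not overlap and a higher group that averages 100 or more; circles are the 3 Pfp/Rag2-/- GFP+ libraries, squares the 3 cultured libraries and crosses the mean of GFP- cells from WT tumours. Brinp3, Omg, H19, Ppfia2 and Krt8 have crosses to the left of their circles, whereas Ctss, Rgs1, C1qa, C1qb, C1qc and Il1b have crosses far to the right and 1 circle, library 1, apart from the others.

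Transcription factors of neural progenitors and glia split, with 10 of 27 tested members higher and 12 lower (median -0.08). Sox11, of immature neurons, had 168, 234 and 252 normalized counts in Pfp/Rag2-/- GFP+ cells against 0, 2.83 and 0 in culture. Sox8, a SoxE factor of glia, had 1373, 1676 and 1494 against 46.3, 40.5 and 30.5 (log2 difference 5.25 ± 0.15, adjusted p = 1.02e-08). Hes5, a target of Notch, and Zic1 were higher by 3.39 ± 0.44 and 3.45 ± 0.41. The oligodendrocyte factors Olig1 and Olig2 were already high in culture and were higher still in the tumour libraries, Olig1 at 27979, 30998 and 26826 against 10512, 12190 and 12187. Sox2 and Sox10, at 6024 ± 283 and 18185 ± 1423 against 6409 ± 139 and 16770 ± 438 (SD, n = 3), did not pass the test, and GFP- cells held 357 ± 392 and 839 ± 886, so both factors were high in both GFP+ groups. Prrx1, Hmga2 and Id3, which are linked to mesenchymal or undifferentiated states, were lower, with log2 differences of -1.83, -1.81 and -1.48, as were Nfia and Nfib, factors of gliogenesis, at -1.37 and -1.22.

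Myelin genes also parted. Of 10 oligodendrocyte lineage genes 6 were higher and 3 lower (median 1.29). Mog had 439, 559 and 419 against 10.4, 21.7 and 25.8, and Mag 267, 180 and 152 against 8.502, 10.4 and 7.63. Mbp, myelin basic protein, had 2903, 1554 and 2212 against 26772, 23647 and 24008, so it was 11.2-fold lower while Mog was higher, and Cldn11, the tight junction protein of myelin, had 1619, 1717 and 1570 against 4656, 5245 and 5214. Astrocyte genes also split, with 3 of 7 higher and 4 lower. Aldh1l1 had 25.6, 32.2 and 37.8 against 591, 629 and 672 and Gja1, connexin 43, 1011, 1237 and 1265 against 2759, 2888 and 2719, both lower with no overlap. Slc1a2, a glutamate transporter, had 314, 219 and 269.9 against 0.945, 1.89 and 0.954, and 1892 ± 1518 in unsorted tumours of the same hosts. Map2, a microtubule protein of neurons, had 4588, 4948 and 4839 against 1731, 1869 and 1831, and Syt1, a synaptic vesicle protein, 247, 319 and 271 against 49.1, 65.99 and 66.8, both higher. Tubb3, neuronal tubulin, was lower at 382, 329.7 and 373 against 1517, 1620 and 1702. GFP- cells had lower means than the tumour libraries for Map2, Syt1 and Tubb3, at 255 ± 207, 20.2 ± 18.02 and 155 ± 93.8. Neuron markers were low in GFP- cells as a whole, and the part of host neurons was not tested. The neuronal markers Rbfox3, Stmn2, Gad1 and Gad2 did not reach the filter.

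Secreted growth factors went both ways. Of 24 tested, 10 were higher and 12 lower (median -0.22). Ptn, pleiotrophin, had 901, 884 and 920.1 in Pfp/Rag2-/- GFP+ cells against 17.95, 19.8 and 21.9 in culture, Bmp2 135, 162 and 196 against 7.56, 10.4 and 7.63, and Angpt1, a ligand of the endothelial receptor Tek, 60.3, 62.5 and 50.7 against 0.945, 2.83 and 3.82. Vegfa, the main angiogenic factor, had 5076, 4648 and 3955 against 952, 1005 and 1085 (log2 difference 2.16 ± 0.09), and GFP- cells held 28881 ± 8999. On the other side Igf1 had 41.1, 45.01 and 15.7 against 341, 339 and 326, Angpt2, the context-dependent antagonist of Angpt1, 751, 727 and 753 against 2594, 2796 and 2924, and Fgf1, Fgf2, Fgf7 and Areg were lower, with log2 differences of -1.92, -1.72, -2.01 and -2.20. Ptn was also higher than in WT hosts, where GFP+ cells averaged 113 ± 29.3 (log2 difference between hosts 3.02 ± 0.17, adjusted p = 0.000101).

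Among receptors 8 of 25 were higher and 13 lower. Kit, the receptor of stem cell factor, had 3722, 3759 and 3643 against 402, 476 and 490.3. Fgfr2 was higher by 4.61 ± 0.40, and Fgfr3 changed in the other direction, with 395, 417 and 437 in the tumour libraries against 8288, 7418 and 7428 in culture (18.5-fold lower, log2 difference -4.21 ± 0.06, adjusted p = 3.65e-10). Erbb2 and Erbb3 of the EGF receptor family, the PDGF receptor gene Pdgfra and the neurotrophin receptor gene Ntrk3 were lower, with log2 differences of -1.74, -1.14, -1.03 and -2.89. Kdr, the VEGF receptor of endothelium, had 263, 100.1 and 108 and no read in culture, and it is 1 of the 10 endothelial markers that were higher, while 2 were lower. The part of endothelial cells was not tested. Ntrk2, the BDNF receptor, had 89.5, 38.6 and 102 with no read in culture, and 779 ± 559.7 in unsorted tumours.

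Several Wnt and Notch ligands rose. Wnt4 had 648, 607 and 560 in Pfp/Rag2-/- GFP+ cells against 4.72, 1.89 and 2.86 in culture, and Wnt7b 2391, 2187 and 2112 against 58.6, 53.7 and 59.2. Their GFP- means were 14.3 ± 18.5 and 82.5 ± 71.3, well under the tumour libraries. Dll1 and Dll3, ligands of Notch receptors, were higher by 4.15 ± 0.13 and 4.07 ± 0.11 on the log2 scale, as were Axin2 and Nrarp, targets of Wnt and Notch signalling, by 1.42 ± 0.05 and 1.47 ± 0.23. Jag1, Notch1, Notch2 and the Wnt receptor Fzd7 were lower, with log2 differences of -1.78, -1.06, -1.17 and -2.18. In all 10 of 20 tested members were higher and 5 lower (median 0.35). Wnt4 and Wnt7b were higher than in WT hosts too, by 2.36 ± 0.30 (adjusted p = 0.00229) and 0.76 ± 0.11 (0.00347).

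Axon guidance genes also went both ways, 14 higher and 16 lower of 33. Ntn1, the diffusible netrin, had 2233, 2241 and 2122 against 6.61, 8.48 and 12.4 (ENSMUSG00000020902, GRCm38 chr11:68209364-68400823), and its receptors Dcc and Unc5b were higher by 5.16 ± 0.53 and 4.29 ± 0.53. Ntn4, a netrin of another kind, had 18.3, 18.4 and 12.9 against 504, 473 and 495. Ephb2, an ephrin receptor, had 119, 76.2 and 94.9 against 0, 1.89 and 1.91, and Sema6a, Sema6d, Robo1 and Plxna2 were higher by 3.86, 4.02, 3.13 and 2.87. The neuropilins, coreceptors for class 3 semaphorins and VEGF, were lower, Nrp1 at 268, 237 and 235 against 1497, 1379 and 1316 and Nrp2 at 1006, 871 and 1037 against 5101, 5037 and 5046. Among glutamate and synapse genes 10 of 20 tested were higher and 4 lower. Cacng4, an AMPA receptor auxiliary subunit, had 436, 369 and 318 against 15.1, 26.4 and 26.7, and the neurexin Nrxn2 was higher by 3.77. The AMPA receptor subunits Gria1 to Gria4 did not reach the filter. In bulk RNA fewer cells of a type and less RNA per cell cannot be told apart, which holds for every level given here.

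Collagen genes went both ways, 12 of 20 higher and 6 lower (median 0.93). The basement membrane chains Col4a1 (ENSMUSG00000031502, GRCm38 chr8:11198423-11312826) and Col4a2 (ENSMUSG00000031503, GRCm38 chr8:11312805-11449287) are neighbours whose annotated starts overlap. Col4a1 had 2033, 1065 and 918 in the tumour libraries against 13.2, 15.1 and 13.4 in culture, and Col4a2 1395, 755 and 616 against 7.56, 9.43 and 5.72. Col1a2 had 1194, 345 and 158 against 2.83, 1.89 and 0.954. For all of these library 1 was highest, and library 1 also had the highest sum of pericyte and fibroblast markers, 6591 against 4818 and 3250 in libraries 2 and 3, and of endothelial markers. In culture the pericyte and fibroblast sum was 4909 to 5056, above that of libraries 2 and 3, with Col1a1 alone averaging 2224 there. The median level of these markers, as a percentage of unsorted Pfp/Rag2-/- tumours, was 113%, 74.82% and 50.75% in the tumour libraries. In culture this median was 1.09% to 7.03%. The endothelial sum was 4446, 2823 and 2840 in the tumour libraries, against 4301 to 4416 in culture, where 5 to 7 of the 12 markers were at 0. Ly6c1 alone averaged 2178 in culture. The endothelial median, on the same scale, was 79.5%, 32.85% and 38.79% in the tumour libraries and 0% to 1.08% in culture. The part of those cells was not tested. Without library 1 the log2 differences of Col4a1, Col4a2 and Col1a2 were 6.06, 6.34 and 6.40. Col5a1, a fibril-regulating chain, had 353, 326 and 214 against 3164, 3241 and 3287, Col12a1 808, 749.5 and 775 against 3791, 3485 and 3234, and Col4a5 1047, 1096 and 1160 against 3631, 4037 and 4139. Col1a1, the partner of Col1a2, averaged 2166 ± 650.3 against 2224 ± 82.8 and was not called.

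Of 34 matrix glycoproteins tested, 16 were higher and 16 lower. Matrix genes of brain were among the higher ones, with the proteoglycans Vcan and Bcan and the link protein Hapln1 higher by 2.41, 2.22 and 4.70. Hapln1 had 159, 239.7 and 212 against 4.72, 8.48 and 7.63, and 11.4 ± 10.6 in GFP- cells. Sparc, a secreted collagen-binding protein, had 9717, 9016 and 8923 against 66489, 66590 and 67419. Fn1, fibronectin, had 3780, 3124 and 2895 against 22295, 23025 and 22773 (log2 difference -2.81 ± 0.08, adjusted p = 1.41e-08). GFP+ cells of WT hosts averaged 15997 ± 2147 of Fn1, so that the level in Pfp/Rag2-/- hosts was lower than in WT hosts too (log2 difference -2.29 ± 0.13, adjusted p = 0.000101). The laminin chains Lama4, Lama5, Lamb1 and Lamc1 were lower, with log2 differences of -2.12, -2.77, -2.45 and -1.39, and Lama1 was higher by 3.62.

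Of 25 matrix proteases and inhibitors 9 were higher and 14 lower (median -0.33). The metalloprotease inhibitors Timp1, Timp2, Timp3 and Timp4 were lower, with log2 differences of -0.33, -3.13, -3.70 and -1.58, of which the call for Timp1 was lost when all 18 libraries shared 1 fit. Timp3 had 1152, 1114 and 1226 against 15117, 14803 and 15595 in culture, and Mmp2, the gelatinase that Timp2 binds, 2036, 2176 and 1784 against 18675, 19474 and 19730. Mmp13, Mmp12, Mmp3 and Mmp9 were higher by 7.15, 4.97, 4.58 and 3.47. Mmp13 had 332, 141 and 116, with library 1 highest, and GFP- cells had 15155 ± 2636. Integrins and adhesion genes were lower in 16 of 26 cases and higher in 8 (median -0.52). Itgb3 and Itgav, which pair as the vitronectin receptor, were lower, with log2 differences of -3.99 and -2.14. Itga1 and Itga2, collagen receptor chains, and Itgb1 were lower, with log2 differences of -2.96, -3.16 and -0.83. L1cam, a neural adhesion molecule, had 1622, 1423 and 1570 against 14413, 14524 and 14237, and Cdh2, N-cadherin, was lower, with a log2 difference of -2.96. Itgb4, the hemidesmosome chain, had 812, 703 and 874 against 519.5, 499.6 and 475.

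The same direction held in a list of cytoskeletal genes and targets of YAP or serum response factor, 14 of 22 lower and 7 higher (median -1.03). The keratins Krt8 and Krt18, given above, are among the 7 higher. Vim, vimentin, had 52423, 49273 and 57395 against 130092, 140335 and 143550, and Nes, nestin, 6412, 6578 and 5182 against 17064, 14930 and 14236. Tpm1, Tpm2, Tpm4, Myl9, Flna, Vcl, Cnn1 and Cnn3, which build or anchor actin filaments, were lower, with log2 differences between -3.05 and -0.93, and Ajuba had 448, 411 and 393 against 1761, 1620 and 1507. Acta2, smooth muscle actin, had 111, 55.1 and 25.8 against 21.7, 9.43 and 8.59, and it is also a pericyte marker. Ccn1, a target of YAP, was higher by 0.76.

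Of 34 genes induced by type I interferon 16 were lower and 9 higher, with 9 not called and a median of -0.20. Over all genes tested 37.1% were lower and 35.1% higher. Interferon binds its receptor and activates transcription factors that bind the interferon-stimulated response element (ISRE) in target promoters. The 200 bases before the RefSeq transcript start (GRCm38.p6) of Ifit3 (chr19:34583329-34583528, plus strand), Bst2 (chr8:71537473-71537672, minus strand) and Isg15 (chr4:156200819-156201018, minus strand), which were all lower, are printed 5′ to 3′ on the gene's strand, with ISRE matches (GAAA, any 2 bases and GAAA again, on either strand) in capitals.
Ifit3: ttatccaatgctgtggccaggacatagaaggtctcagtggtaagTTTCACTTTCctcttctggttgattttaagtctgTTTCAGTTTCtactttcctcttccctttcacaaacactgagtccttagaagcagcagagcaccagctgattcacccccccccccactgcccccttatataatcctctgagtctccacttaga
Bst2: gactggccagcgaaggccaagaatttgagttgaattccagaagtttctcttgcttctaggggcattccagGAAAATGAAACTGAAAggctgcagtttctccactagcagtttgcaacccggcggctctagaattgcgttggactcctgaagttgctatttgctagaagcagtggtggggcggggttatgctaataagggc
Isg15: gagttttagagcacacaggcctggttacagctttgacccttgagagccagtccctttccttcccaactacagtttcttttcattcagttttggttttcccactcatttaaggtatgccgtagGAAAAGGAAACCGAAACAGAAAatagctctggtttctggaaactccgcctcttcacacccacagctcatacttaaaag
In Bst2 and Isg15 neighbouring matches overlap. Such a match lay in the 250 bases before a start of 10 of 24 list members with a RefSeq promoter, against 3.46% of all genes with a promoter, counted in the same way. These were 7 of 13 lower members, 3 of 7 that were not called and 0 of 4 higher ones. Only 4 of the 9 higher members had a RefSeq promoter, too few to compare the directions. Ifit3, an antiviral tetratricopeptide protein (ENSMUSG00000074896, GRCm38 chr19:34583531-34588731), had 1547, 1253 and 1516 in Pfp/Rag2-/- GFP+ cells against 5384, 4961 and 5360 in culture (3.64-fold lower, adjusted p = 9.66e-08). Its near copy Ifit3b, with which it could share reads, had 529, 439 and 509 against 1930, 1889 and 1924. Bst2, tetherin (ENSMUSG00000046718, GRCm38 chr8:71534255-71537456), had 8662, 7668 and 9155 against 22211, 21642 and 22603, and Isg15, a ubiquitin-like modifier (ENSMUSG00000035692, GRCm38 chr4:156199424-156200818), 3009, 2462 and 2475 against 6991, 6509 and 6582. No library of 1 group reached the range of the other for any of these. Ifit1 and Ifi44 were lower, with log2 differences of -1.18 and -1.14.

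Among the higher type I genes Oas2, an RNA-sensing enzyme, had 2625, 1814 and 2489 in the tumour libraries against 276, 252 and 245 in culture, a log2 difference of 3.14 ± 0.13. Irf7, the factor that amplifies interferon production, had 4742, 3003 and 4014 against 1832, 1751 and 1834. Oasl1 had 839, 317 and 464 against 126, 106 and 102. GFP- means were 5069 ± 542, 15982 ± 1860 and 6850 ± 2732, each above the tumour libraries. GFP+ cells of WT hosts averaged 409 ± 18.7 of Oas2, so the level was higher in Pfp/Rag2-/- hosts than in WT hosts as well (log2 difference 2.48 ± 0.14, adjusted p = 9.74e-05). Of the 34 type I genes 8 were higher and 8 lower than in WT hosts.

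Of 21 MHC class I presentation genes 14 were higher than in culture and 3 lower (median 0.71), and without library 1 14 and 5. H2-K1, a classical heavy chain, had 16979, 10910 and 12111 against 4184, 4333 and 4567, and H2-D1, the other, 17307, 12020 and 13760 against 4450, 4905 and 4939. Reads of H2 genes could be split among close relatives. Tapbpl, a peptide editor, had 622, 457 and 528 against 154, 167 and 168, Psmb9 732, 544 and 621 against 319, 299 and 308, and Nlrc5, the class I transactivator, 2112, 1682 and 1790 against 1110, 985 and 985. B2m, the light chain, averaged 13942 ± 2470 against 14504 ± 409 and was not called. Calr and Pdia3, chaperones of the loading complex, and Psme2, a proteasome activator, were lower, with log2 differences of -0.64, -0.40 and -0.48. H2-Q7 had 1202, 156 and 178, with library 1 far above the others, and GFP- cells had 17172 ± 3202.

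Between the hosts, 20 of the 21 class I genes were lower in Pfp/Rag2-/- GFP+ cells than in WT GFP+ cells and none higher, with a median log2 difference of -1.47, against 0.02 over all genes in that comparison. Of 21 interferon-gamma response genes 19 were lower than in WT hosts and none higher (median -2.77). Against culture the same list had 7 higher and 9 lower. Gbp6, a guanylate-binding protein, averaged 583 ± 61.6 in Pfp/Rag2-/- hosts, 2001 ± 195 in WT hosts and 197 ± 6.13 in culture. Cxcl10, a chemokine that attracts T cells, averaged 1128 ± 178 in Pfp/Rag2-/- hosts, 7021 ± 3313 in WT hosts and 3234 ± 120 in culture, so of these 3 groups it was lowest in the Pfp/Rag2-/- host. Gbp2, Gbp3, Gbp5 and Gbp7 were below culture, with log2 differences of -0.54, -0.51, -0.60 and -0.64. Irf8 and Cd74, which were far above culture, are also genes of myeloid and antigen-presenting cells. Irf8 had 2259, 201 and 178 in the tumour libraries and 21253 ± 1448 in GFP- cells. Cd74 had 6204, 399.5 and 329.7 in the tumour libraries and 256435 ± 22236 in GFP- cells, and in both genes library 1 stood far above the others.

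**Figure D4:**
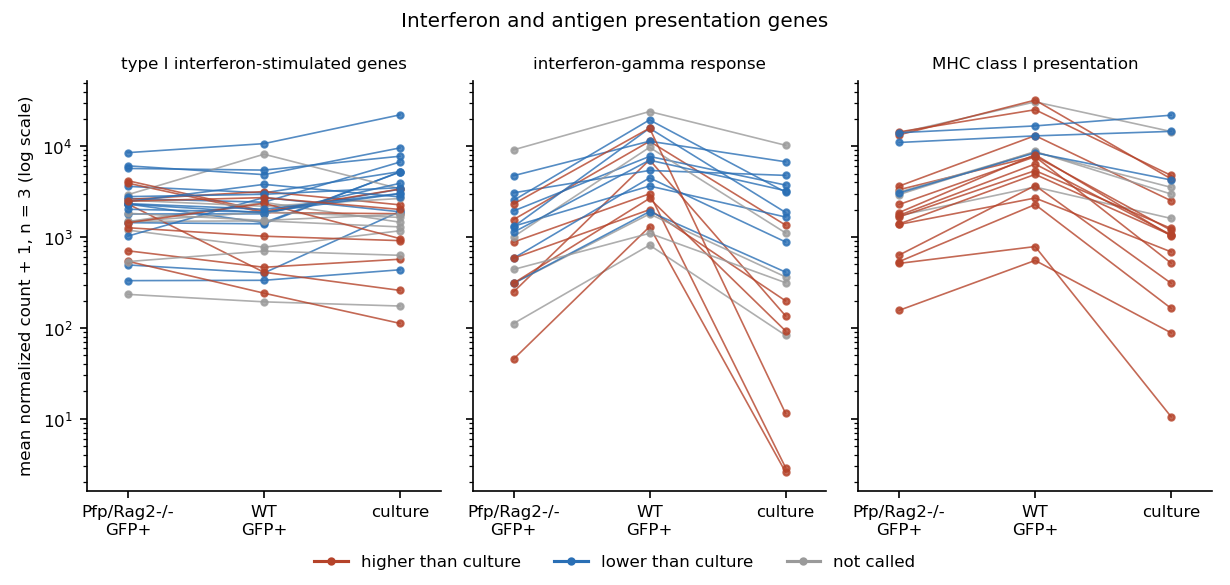
Lines join the mean normalized count plus 1 (log scale, n = 3 per group) of 1 gene in Pfp/Rag2-/- GFP+ cells, WT GFP+ cells and culture, for 3 lists; red lines are genes higher and blue lines genes lower in Pfp/Rag2-/- GFP+ cells than in culture, and grey lines were not called. In the interferon-gamma and class I panels most lines peak in WT GFP+ cells, where 19 of 21 and 20 of 21 genes were higher than in Pfp/Rag2-/- GFP+ cells, and of the 34 type I genes 8 were higher and 8 lower in the Pfp/Rag2-/- than in the WT host.

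Chemokine and cytokine genes included 9 higher and 6 lower of 16 tested, and several of the higher ones were highest in library 1. Cxcl2, a chemokine for neutrophils, had 1249, 46.8 and 44.2 in the tumour libraries, with a GFP- mean of 59059 ± 34090. Ccl3, a chemokine of myeloid cells, had 389.9, 33.1 and 30.4 with no read in culture, and a GFP- mean of 8366 ± 1812. Il11, of the IL-6 family, had 52.1, 82.7 and 44.2 against 447, 599.5 and 565 in culture, Il33, an alarmin, 93.2, 84.5 and 82.9 against 274, 288 and 244, and Csf1, the macrophage growth factor, 824, 459 and 514 against 1276, 1135 and 1021. All 3 were lower than in culture, with no overlap. Among complement genes 8 of 10 tested were higher and 2 lower, and the lower call of Cd59a, a membrane inhibitor of complement, was lost when all 18 libraries shared 1 fit and with DESeq2. C1qa, given above with the macrophage genes, is 1 of the 8, and all 18 macrophage markers were higher too, whose part was not tested. C4b, of the classical pathway, had 7875, 6571 and 7311 against 619.7, 735 and 783, and the tumour libraries were alike. WT GFP+ cells held 18473 ± 699 (log2 difference between hosts -1.35 ± 0.08, adjusted p = 9.74e-05) and GFP- cells 6813 ± 1595. Clu, clusterin, had 2094, 2191 and 2077 against 4021, 4184 and 4290. Of 20 genes tested from a list of inhibitory molecules and killer cell ligands, some of them enzymes, 5 were higher and 11 lower. The enzyme genes Ptgs2, at 711, 53.3 and 40.5, and Entpd1, at 229, 28.5 and 28.55, were among the higher ones. Both were highest in library 1, and GFP- cells held 36388 ± 19546 and 8783 ± 1269. Tgfb2 had 94.1, 62.5 and 82.9 against 1091, 1015 and 1051, 13.2-fold lower, and Raet1d, a ligand of NKG2D with near-identical relatives, Cd276 and Pvr were lower, with log2 differences of -0.96, -0.70 and -0.82. Cd47, the signal that holds back phagocytosis, was higher by 0.78. Cd274, which encodes PD-L1, had 596, 136 and 196 against 105, 83.9 and 85.9, a call lost with robust eBayes and without cultured library 2 or 3. It averaged 2662 ± 1160 in WT GFP+ cells and 22113 ± 9534 in GFP- cells.

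Immediate early genes were mostly higher in Pfp/Rag2-/- GFP+ cells than in culture, 20 of 25 against 2 lower (median 1.79). These genes respond to growth factors, calcium or stress within minutes without new protein synthesis, many through serum response factor at CArG boxes. The 200 bases before the RefSeq start (GRCm38.p6) of Zfp36 (chr7:28379229-28379428, minus strand) and Egr2 (1 of 4 annotated starts with a box in these bases, chr10:67537366-67537565, plus strand), both higher, each hold a CArG box, in capitals, 58 and 72 bases before the start.
Zfp36: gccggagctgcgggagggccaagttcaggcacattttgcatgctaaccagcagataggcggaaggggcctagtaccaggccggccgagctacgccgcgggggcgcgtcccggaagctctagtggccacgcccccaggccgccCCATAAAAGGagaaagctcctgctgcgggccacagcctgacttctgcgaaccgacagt
Egr2: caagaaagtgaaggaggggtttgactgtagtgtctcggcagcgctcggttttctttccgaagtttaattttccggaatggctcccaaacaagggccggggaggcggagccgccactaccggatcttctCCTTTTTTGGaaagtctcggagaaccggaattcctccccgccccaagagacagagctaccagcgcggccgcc
They were the only 2 of 21 members with a RefSeq promoter to hold one in the 250 bases before a start, against 1.62% of all genes with a promoter. Fos (ENSMUSG00000021250, GRCm38 chr12:85473890-85477273) had 29736, 33099 and 29822 in Pfp/Rag2-/- GFP+ cells against 1699, 1807 and 1860 in culture, 17.3-fold higher (log2 difference 4.11 ± 0.05, adjusted p = 3.12e-10). Fosb had 9817, 9435 and 8093 against 71.8, 69.8 and 86.8, Egr2 1029, 1225 and 1202 against 64.2, 59.4 and 59.2, and Zfp36, which destabilises cytokine messages, 4565, 3933 and 3396 against 235, 242 and 255. Every tumour library was many times every cultured one for these genes. Egr1, Junb, Klf2 and Atf3 were higher by 3.74, 3.36, 3.46 and 2.67, while Fosl1, the AP-1 member of sustained signalling, had 216, 165 and 192 against 327, 296 and 295.

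Levels in the unsorted tumours of the same hosts were lower. Fosb averaged 9115 ± 906 in sorted Pfp/Rag2-/- GFP+ cells and 176 ± 12.3 in unsorted cells, Fos 30885 ± 1917 and 2363 ± 171, and Egr2 1152 ± 107 and 174 ± 29.2 (SD, n = 3 each). The log2 differences, sorted minus unsorted, were 5.68 ± 0.09 (adjusted p = 4.31e-07), 3.71 ± 0.07 (1.16e-06) and 2.73 ± 0.13 (0.000137). In that comparison 1699 of 15324 genes (11.1%) were higher and 2926 (19.1%) lower in the sorted cells, a split that became 2249 and 2248 with TMM factors, and 19 of the 25 immediate early genes were higher and 1 lower. Sorting and the steps around it go with this comparison. GFP- cells, which were sorted too, held 78604 ± 3193 of Fosb and 75312 ± 7660 of Fos, and WT GFP+ cells 18729 ± 7547 and 44338 ± 9903, whereas the cultured cells, also labelled as sorted, held the low levels above. The part of sorting in the difference from culture was not tested.

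**Figure D5:**
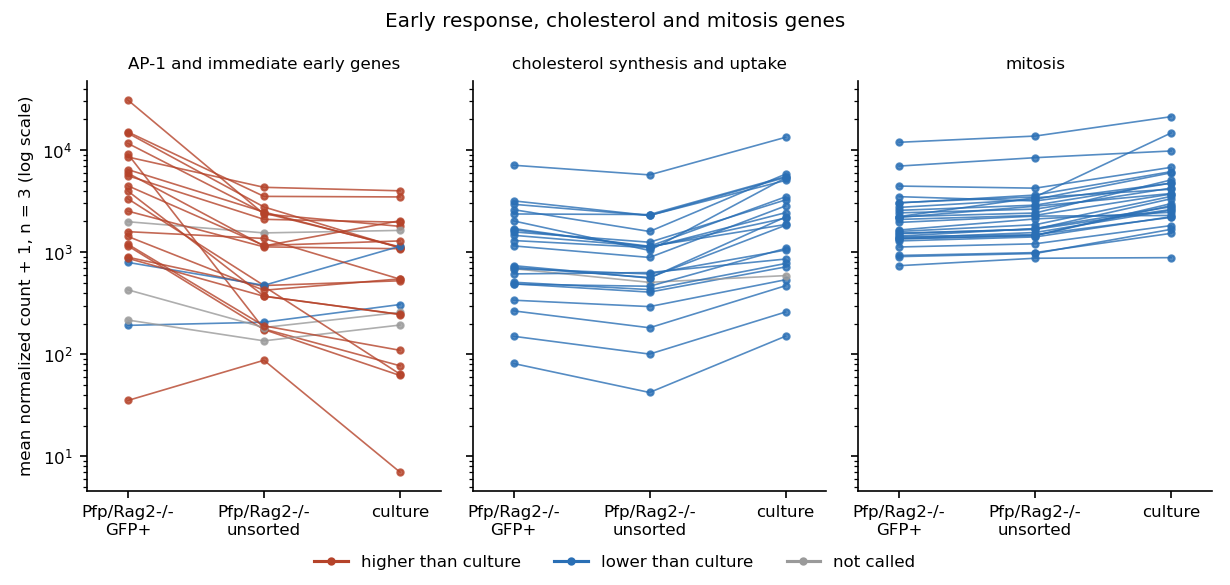
Lines join the mean normalized count plus 1 (log scale, n = 3 per group) of 1 gene in sorted Pfp/Rag2-/- GFP+ cells, unsorted Pfp/Rag2-/- tumours and culture; red lines are genes higher and blue lines genes lower in the sorted tumour cells than in culture, and grey lines were not called. Of the early genes 19 of 25 were higher in the sorted than in the unsorted cells, while all 28 mitosis genes and 23 of 24 cholesterol genes lie below culture.

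NF-kB feedback genes were higher in 8 of 17 cases and lower in 1, counts that were 9 and 6 without library 1. Tnfaip3, which shuts off NF-kB, had 4635, 863 and 811 against 109.6, 81.1 and 87.8, with 76623 ± 21885 in GFP- cells. Feedback genes of the ERK pathway were lower in 9 of 16 cases and higher in 5. Spry1, a Sprouty inhibitor, had 4377, 5052 and 5030 against 2471, 2653 and 2727 and was higher. Etv1, an ETS factor that ERK induces, had 509.6, 594 and 574 against 1151, 1209 and 1270, and Ccnd1, cyclin D1, 14041, 12868 and 12364 against 33227, 34968 and 35829, both lower. Heat shock genes were lower in 11 of 15 cases and higher in 3 (median -0.77). The inducible Hspa1a and Hspa1b, near-identical neighbours whose reads cannot be assigned with certainty, were higher. Hspa1b had 442, 98.3 and 74.6 against 0.945, 0.943 and 0, with 17223 ± 5032 in GFP- cells, and Hspa1a 246, 33.98 and 24.9 with no read in culture. Dnajb1 had 3115, 3852 and 4071 against 1645, 1444 and 1592. Most chaperones went the other way, with Cryab at 451, 501 and 518 against 7434, 7101 and 7104 and Hsph1 at 3074, 3322 and 3245 against 9425, 7796 and 8049, and Hsp90aa1 and Hspd1 lower, with log2 differences of -0.94 and -0.95.

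All 28 mitosis genes were lower in Pfp/Rag2-/- GFP+ cells than in culture (median -0.83). The genes of mitosis rise together late in the cell cycle, when a MuvB complex with B-MYB and FOXM1 activates promoters with CHR elements (TTTGAA) and CCAAT boxes. The 200 bases before the RefSeq start (GRCm38.p6) of Prc1 (chr7:80294276-80294475, plus strand) and Cdk1 (chr10:69352913-69353112, minus strand) hold both, matched on either strand and given in capitals, with no overlap between matches.
Prc1: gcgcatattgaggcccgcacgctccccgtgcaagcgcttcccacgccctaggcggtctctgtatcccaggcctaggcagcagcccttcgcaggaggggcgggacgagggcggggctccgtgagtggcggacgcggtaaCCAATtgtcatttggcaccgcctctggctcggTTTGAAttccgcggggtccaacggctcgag
Cdk1: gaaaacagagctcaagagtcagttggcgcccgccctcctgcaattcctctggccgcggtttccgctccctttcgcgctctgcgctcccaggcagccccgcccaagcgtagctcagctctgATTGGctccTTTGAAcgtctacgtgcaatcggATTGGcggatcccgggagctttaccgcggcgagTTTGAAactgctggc
A CCAAT box lay in the 250 bases before a start of 18 of 23 mitosis genes with a RefSeq promoter and the CHR letters in 9 of 23, against 37.5% and 18.3% of all genes with a promoter, counted in the same way. Anln, anillin, which organises the contractile ring and also binds actin, had 3062, 2890 and 3211 in the tumour libraries against 14875, 14616 and 14689 in culture, 4.82-fold lower (log2 difference -2.27 ± 0.04, adjusted p = 1.67e-09). Prc1, a spindle midzone protein (ENSMUSG00000038943, GRCm38 chr7:80294450-80316259), had 2169, 2106 and 2401 against 5042, 5126 and 5143, and Aurka, a mitotic kinase, 1290, 1347 and 1423 against 3032, 3027 and 2914. Cdk1 had 3025, 2981 and 3101 against 6150, 6108 and 6200. None of these groups overlapped. The proliferation marker Mki67 and cyclin B1, Ccnb1, were lower, with log2 differences of -0.49 and -0.72, and the smallest difference in the list was -0.22 for Mad2l1, a call lost with quantile normalization and when all 18 libraries shared 1 fit. Relative to GFP+ cells of WT hosts 20 of the 28 were lower and none higher (median -0.31).

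Of 32 DNA replication genes 19 were lower, 5 higher and 8 not called (median -0.21). Ccne1, cyclin E1, had 528, 466 and 489 against 1131, 963 and 921, and Ccne2 864, 658 and 749.7 against 580, 453 and 414, so the paralogs went apart. Rrm1, of ribonucleotide reductase, had 3256, 3237 and 3348 against 5545, 5419 and 5328. Pcna averaged 3386 ± 198 against 3415 ± 78.7 and was not called, and the Mcm2 to Mcm7 helicase genes had log2 differences between -0.48 and 0.12. Of 14 CDK inhibitors and quiescence genes 5 were higher and 4 lower. Ccnd2, cyclin D2, had 3397, 3043 and 3320 against 18107, 18382 and 18542. Cdkn2a, which encodes an inhibitor of cyclin D kinases, had 2711, 2829 and 2859 against 6523, 7056 and 7270, and its neighbour Cdkn2b 296, 294 and 317 against 926, 1063 and 1103. Cdkn2a and Cdkn2b were both lower in the tumour libraries. Cdkn1a, p21, had 3999, 3225 and 3653 against 2402, 2411 and 2405, with 29188 ± 8856 in GFP- cells, and Txnip, a brake on glucose uptake, 2917, 2837 and 3066 against 852, 1016 and 994.

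Cholesterol synthesis and uptake genes were lower in 23 of 24 cases, and none was higher (median -0.90). When sterols are low, SREBP2 leaves the endoplasmic reticulum and activates these genes together with NF-Y, which binds CCAAT boxes. The 200 bases before the RefSeq start (GRCm38.p6) of Hmgcs1 (chr13:119690151-119690350, plus strand) and Dhcr7 (chr7:143830014-143830213, plus strand) are given with CCAAT on either strand, and in Hmgcs1 also the sterol element core TCACNCCAC, in capitals.
Hmgcs1: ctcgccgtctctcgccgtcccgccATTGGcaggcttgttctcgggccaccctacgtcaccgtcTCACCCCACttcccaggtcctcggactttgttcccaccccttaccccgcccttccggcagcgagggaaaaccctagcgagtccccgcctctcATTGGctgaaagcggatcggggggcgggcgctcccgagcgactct
Dhcr7: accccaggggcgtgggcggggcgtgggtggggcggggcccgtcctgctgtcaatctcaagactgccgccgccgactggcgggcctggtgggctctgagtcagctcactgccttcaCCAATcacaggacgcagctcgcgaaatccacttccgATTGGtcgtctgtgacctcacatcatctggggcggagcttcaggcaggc
CCAAT lay in the 250 bases before a start of all 17 members with a RefSeq promoter, the 1 gene that was not called included, against 37.5% of all genes with a promoter, and the sterol core letters in 1 of the 17 against 1.22%. Stard4, a sterol carrier, had 619, 815 and 777 in Pfp/Rag2-/- GFP+ cells against 2039, 2209 and 2381 in culture (2.998-fold lower, log2 difference -1.59 ± 0.10, adjusted p = 1.29e-06), and Fdft1, squalene synthase, 616, 835 and 683 against 1629, 1943 and 1929. Library 1 was lowest in both and no tumour library reached culture. Hmgcs1, an early enzyme of the pathway, had 1032, 1604 and 1263 against 2110, 2585 and 2617, and Dhcr7 1078, 1319 and 1057 against 2575, 2919 and 3023. Mvd, at 573, 822 and 669.6 against 483, 615 and 668, did not pass. Between hosts 2 members were higher and none lower (median 0.14).

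Of 17 genes of cholesterol efflux and lipid handling 5 were higher and 9 lower. Scd1, a stearoyl-CoA desaturase, had 2058, 3097 and 3002 against 24729, 25084 and 25587 in culture (log2 difference -3.23 ± 0.13), and its paralog Scd2 5991, 9637 and 7998 against 59550, 63890 and 65149 (-3.02 ± 0.14). Fasn and Acaca, which build palmitate, were lower, with log2 differences of -1.46 and -1.36, and Mylip, a ubiquitin ligase, had 206, 132 and 131 against 786, 798 and 874. Apoe, Abcg1 and Abca1, which export lipid, were higher, Apoe at 6238, 2166 and 2195 against 56.7, 53.7 and 55.3. GFP- cells held 474912 ± 137136 of Apoe. Abca1 had 283, 60.6 and 66.3 against 9.45, 5.66 and 18.1, and library 1 was several times the others in Abcg1 too.

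Hypoxia and glycolysis genes split, 13 of 34 higher and 13 lower. Car9, a carbonic anhydrase induced by HIF-1, had 276, 475 and 285 in the tumour libraries against 43.5, 48.1 and 62.01 in culture, with 170.1 ± 64.4 in GFP- cells, and Adm 64.8, 61.5 and 42.4 against 4.72, 0.943 and 4.77. Slc2a1, the glucose transporter GLUT1, had 6059, 6958 and 5612 against 2243, 2459 and 2738, while Slc2a3, GLUT3, had 820.1, 985 and 813 against 1792, 2047 and 2164. Glycolytic enzymes were near or below culture, with Eno1, Pgk1 and Gapdh lower, with log2 differences of -0.94, -0.58 and -0.33, and Ldha, at 13365 ± 802 against 14132 ± 367, not called. Relative to the WT host 24 of the 34 were lower and none higher (median -0.56), Slc2a1 and Car9 among them, at 12161 ± 759 and 729 ± 36.7 in WT GFP+ cells. Of 14 transporters of amino acids, glucose and lactate 3 were higher and 7 lower, and Slc16a1, the lactate transporter MCT1, was below culture at 1009, 992 and 1002 against 2966, 3003 and 2926.

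Of 27 unfolded protein and ATF4 stress genes 16 were lower and 9 higher (median -0.29). The enzymes of serine and one-carbon synthesis Phgdh, Psat1, Psph and Mthfd2 were lower, with log2 differences of -1.06, -0.95, -0.97 and -0.97, and Asns was lower at -0.93. Trib3, at 4750, 4596 and 5034 against 1628, 2224 and 2092, and Atf5 were higher. Of 19 p53 targets tested 8 were higher and 9 lower, with Bbc3, the death gene Puma, at 1020, 930.4 and 823 against 367, 520.4 and 499 and Sesn1 at 396, 347 and 369 against 708, 879 and 1037. Among genes of iron and redox control 11 of 18 were lower and 1 higher, counts that were 13 and 2 without library 1. Nqo1, a target of NRF2, had 13.7, 11.02 and 14.7 against 69.9, 71.6 and 52.5, Gsta4 37.4, 46.8 and 39.6 against 159, 148 and 175, and Cp, ceruloplasmin, 768, 985 and 954 against 1631, 1680 and 1710. Of 22 lysosome and autophagy genes 10 were lower and 5 higher. The cathepsins Ctsb, Ctsl and Ctsz were lower, with log2 differences of -1.42, -0.99 and -0.99, and GFP- cells held 133898 ± 15575, 18678 ± 4816 and 45761 ± 4739. Gpnmb, a glycoprotein of lysosomes and melanosomes that was abundant in the line, had 74650, 73694 and 73357 against 32402, 37424 and 38252.

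Ribosomal protein genes were higher in 30 of 36 cases and lower in 2 (median 0.35), with small differences. Rps27 had 11796, 10076 and 10004 against 4541, 4637 and 4571, Rps20 30128, 29349 and 33160 against 15158, 16467 and 16523, and Rps2 21832, 24073 and 22231 against 32648, 32730 and 29065. Many of these genes have processed pseudogenes with which they could share reads. Of 20 ribosome biogenesis and MYC target genes 11 were lower and 3 higher (median -0.16), and Nolc1 stood at 4808, 5176 and 5022 against 7719, 7231 and 6979. Nuclear genes of oxidative phosphorylation were near the median of all genes, 9 of 34 higher and 15 lower with log2 differences between -0.63 and 0.60. The ATP synthase genes Atp5b, Atp5d and Atp5o were all lower, Atp5b at 26369, 26896 and 26859 against 37641, 37973 and 37534. Of 13 mitochondrially encoded genes 6 did not reach the filter, for reasons that were not tested. Of the 7 tested, 2 were higher and 3 lower, counts that were 1 and 4 without library 1. The higher ones were mt-Cytb and mt-Nd4. Both calls were lost with robust eBayes, when all 18 libraries shared 1 fit and without cultured library 2 or 3, and that of mt-Nd4, whose groups overlapped, also without tumour library 1. Among the lower ones mt-Nd1 stood at 12053, 9624 and 9968 against 18405, 13664 and 16512.

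Glucocorticoid response and clock genes can follow hormonal and daily rhythms in an animal, whose part in the differences below was not tested. Of 11 glucocorticoid response genes tested 7 were higher and 3 lower (median 0.98). Sgk1 had 2210, 1591 and 1438 against 385, 304 and 339, with 51759 ± 6074 in GFP- cells, and Mt2, a metallothionein, 498, 663 and 478 against 227, 182 and 242. Fkbp5, a usual target of the receptor, had 677, 640.2 and 659 against 754, 814 and 795 and was called lower, a call lost when all 18 libraries shared 1 fit. Tsc22d3, another such target, had 835, 566 and 605 against 592, 629 and 620.1 and was not called. Among 16 clock genes 7 were higher and 3 lower, counts that were 6 and 5 without library 1. Per1, a repressor arm gene of the clock, had 2378, 1598 and 2049 against 722, 845 and 819, and Per2 111, 78.99 and 81.1 against 28.3, 22.6 and 20.99, both higher. Arntl, which encodes the activator BMAL1, was lower at 174, 254 and 248 against 475, 449.7 and 446. The labels give no hour of collection.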

How the data were processed

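RNA-seq of 18 libraries in 6 groups of 3 was used, 6 libraries for the main comparison. The deposited values are normalized counts, a signal the authors made by dividing gene read counts by a size factor per library. Per the submitters' processing notes the tools were STAR 2.5.2b and DESeq2, on GRCm38, and the kit is directional per the labels. Which program counted reads, with which strand setting and annotation, is not given in the sources used here. All values (100%) were whole multiples, within 0.05 reads, of what 1 read is worth, which gave the reads per library. Gene names and coordinates are from GENCODE vM21 (48349 of 48795 genes), and promoters from RefSeq GRCm38.p6, with 250 bases before a start searched on both strands and 200 printed.

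Log2 of the value plus 1 was fitted with limma 3.58.1 in R 4.3.3 for genes at 10 or more in 3 or more of the 6 libraries compared, with Benjamini-Hochberg adjustment over all genes tested and a threshold of 0.05. The same fit was made against WT GFP+ cells and unsorted tumours. The design had assumed raw counts, so edgeR 4.0.16 and DESeq2 1.42.0 on the recovered reads serve as alternatives. Other alternatives were the pseudocount, the filter, quantile and TMM normalization, robust eBayes, all 18 libraries in 1 fit, a replicate block, and each library left out in turn. The procedure was tested on simulated data. Tables used pandas 2.3.3 and numpy 2.4.6 in python 3.11.15, and figures matplotlib 3.10.9.

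Genes were named as the 15 highest and 15 lowest called genes with a mean of at least 100, up to 3 called members at each end of a list with a mean of at least 50, and markers, and some genes that meet this rule are not reported here. Other list members given as examples were chosen after their values were seen. The genes and lists were chosen with earlier results of these data known. Same-numbered libraries of the hosts deviated together (r = 0.616, 0.483 and 0.102), which meets the rule for pairing, although Pfp/Rag2-/- library 3 correlated better with WT library 2 (0.443). The labels do not say what a number stands for.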

Additional observations from a re-analysis of the deposited data

Results flagged for a closer look

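Of 251 named genes tested between hosts, 130 were called. Of those 130, 5 lay on opposite sides of culture in the 2 hosts, namely Psme2, Irgm2, Gbp7, Cp and Fbl. For these 5 every Pfp/Rag2-/- GFP+ library was below the cultured mean and every WT GFP+ library above it. They were picked by this rule, and the share over all genes is not given here. The hosts were compared by limma with Benjamini-Hochberg adjustment over the 14807 genes tested between them. Psme2, a proteasome activator subunit, averaged 3054 ± 171 in Pfp/Rag2-/- hosts, 8459 ± 411 in WT hosts and 4246 ± 70.9 in culture, with a log2 difference between hosts, Pfp/Rag2-/- minus WT, of -1.47 ± 0.06 (adjusted p = 3.57e-05). Irgm2, an interferon-induced GTPase, averaged 1935 ± 246, 7717 ± 1171 and 3731 ± 271 in the same order, with a difference of -1.99 ± 0.13 (0.000183). Gbp7, a guanylate-binding protein, averaged 3066 ± 307, 5406 ± 262 and 4773 ± 136, with a difference of -0.82 ± 0.08 (0.000835). Cp, ceruloplasmin, averaged 902 ± 117, 3608 ± 1128 and 1674 ± 39.9, with a difference of -1.95 ± 0.23 (0.00172). Fbl, the methyltransferase fibrillarin of the nucleolus, averaged 1695 ± 224, 2551 ± 103 and 2197 ± 98.2, with a difference of -0.60 ± 0.10 (0.00547). The call of Fbl against culture was lost with quantile normalization. Each value is a mean ± SD of 3 libraries.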

How the results depend on the processing

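Counts against culture stayed within 1.5 times of the main ones under every alternative, at 3842 to 6328 higher and 4107 to 5431 lower (6328 and 5431 with no filter, 3842 and 5083 with a filter at 50, 5448 and 4982 with edgeR, 4744 and 4690 with DESeq2). The median over all genes moved to 0.17 with no filter. Leaving out 1 library gave 4631 to 5057 higher and 4943 to 5426 lower. Of 254 named genes, 230 kept their side of the threshold under all 16 alternatives, 24 lost the call under at least 1, and Rpl27 reversed, to 0.11 with quantile normalization. Of 98 list counts 39 moved by over 1.5 times under at least 1 alternative. The causes were not tested.

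Between hosts, 1483 genes were higher when all 18 libraries shared 1 fit, and leaving out 1 library gave 1137 to 2843 higher and 1380 to 2689 lower. The low ends were reached without Pfp/Rag2-/- GFP+ library 2 (1137 and 1385) or 3 (1240 and 1427), or WT GFP+ library 1 (1431 and 1507) or 2 (1358 and 1380). Against unsorted tumours the fit of all 18 gave 952 higher and 1630 lower, and leaving out 1 library 1038 to 1546 and 1886 to 3218, with 1038 and 1916 without Pfp/Rag2-/- GFP+ library 2 and 1042 and 1886 without library 3. That split was 1699 and 2926 in the fit reported, 2352 and 2276 with quantile normalization, 2249 and 2248 with TMM factors, 2187 and 2136 with edgeR and 2123 and 2288 with DESeq2.

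With replicate number as a block, 5048 genes were higher and 5354 lower than in culture, 2232 and 2356 than in WT hosts, and 1322 and 2498 than in unsorted tumours. Deviations of same-numbered libraries correlated at -0.010, 0.025 and -0.046 against culture and 0.132, 0.163 and -0.035 against unsorted tumours. For Pfp/Rag2-/- GFP+ libraries 1 and 2 the same-numbered unsorted library correlated best, and for library 3 it did not. These low values do not settle whether libraries of the same number share an origin. Between hosts the block changed the call of 27 of the named genes, 4 lost and 23 gained.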
